A study of Mus musculus with 4 samples.

Results

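The mouse array used here carries probes for long intergenic non-coding RNAs (lincRNAs) that have no gene symbol and are named by their place in the genome. They were taken as every non-control probe whose name in the files starts with chr, a rule that uses no measured value. It found 16194 of the 55681 non-control probes (29.1%), for 4610 loci, each a genome interval (mm9 build) with a strand. A suffix of F or R in a locus name gives the forward or reverse strand. The 4610 loci fall on 3543 intervals, 1067 of which were probed on both strands, and merge into 2226 separate regions. A locus had 1 to 10 probes with a median of 3, and 690 loci had only 1. The median interval spanned 10676 bases, with a range from 62 to 7128487 bases. The loci lie on 20 chromosomes, with 0 on Y. They were set beside the 36781 probes of 27466 genes that the files name, and 12 of those are lincRNA genes with names of their own, such as HOTAIR and NEAT2, which the rule leaves out.

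Long intergenic non-coding RNAs are transcripts that lie between protein-coding genes, carry no long open reading frame and are made largely by the same polymerase as messenger RNA. Many are weakly expressed, confined to few cell types and transcribed from active chromatin near a coding gene, and only a small number have a known function. In blood-forming cells, individual lincRNAs have been tied to stem cell maintenance and to the survival of mature myeloid cells, but most loci on such arrays were defined from chromatin maps or transcript assemblies and remain uncharacterised.

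RNA was compared from 2 populations of blood-forming cells and 2 genotypes, in 4 groups of 1 array each. The donors were 10-week-old male C57BL/6J (Ly5.2) mice, either wild type (WT) or with a conditional knockout of p38 (cKO); the series title names p38 alpha, a stress-activated kinase, and the Cre driver is not given in the sources used here. Long-term haematopoietic stem cells (LT-HSC, CD34- Flt3- LSK) and multipotent progenitors (MPP, CD34+ Flt3+ LSK) were labelled with the dye CFSE, transplanted into Ly5.1 mice irradiated with 9.5 Gy, and sorted again as CFSE+ cells 16 h later. LSK cells are the lineage-negative Sca-1+ c-Kit+ fraction of bone marrow. All 4 groups therefore had been transplanted, and the number of mice behind an array is not given. With 1 array a group no difference has a replicate check, and fewer cells of a type cannot be told apart from less RNA per cell.

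All 4 arrays sit on 1 slide, from 1 scan, and no spot was saturated. Mapk14, the gene of p38 alpha, had 2 probes. The first read 474, 490, 621 and 595 in the order WT LT-HSC, cKO LT-HSC, WT MPP and cKO MPP. The second read 1447, 912, 951 and 1024. Neither fell 2-fold on a cKO array, and where the probes lie relative to the deleted part is not given, so this does not check the labels. All 10 stem and progenitor markers were well above background on both LT-HSC arrays, and 9 of the 10 on each MPP array. The summed signal of 10 B cell markers was 18835 and 7271 in WT and cKO LT-HSC against 461 and 390 in WT and cKO MPP, where 3 and 4 of the 10 were not well above background. That of 8 stroma and endothelium markers was 8484 in WT LT-HSC and 1830 to 2080 on the other arrays, that of 5 erythroid genes was 13890 in WT LT-HSC and 2836 to 5997 elsewhere, and that of 9 macrophage markers was 7529 in cKO MPP and 1156 to 2710 elsewhere. These lists move with the comparisons below, and their part in the results on the loci was not tested.

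Signals below are the scanner software's processed intensities, in arbitrary units, given in the order WT LT-HSC, cKO LT-HSC, WT MPP and cKO MPP. A probe's brightness depends on its sequence as well as on its target, so signals of different probes do not rank transcripts. Differences are of log2 signals after each array was set to its 75th percentile, and the ± beside one is the scanner software's own error for the 2 spots, not a replicate error. A locus is given by its brightest probe that was well above background, a flag of the scanner software, on at least 1 array.

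Each probe reads one strand with 60 bases, and the sequences of a few carry what follows. The first pair lies on chromosome 16 at mm9 positions 89963529 to 89963588, and the probes are complementary over their whole length. The second pair, on chromosome 6, shares only the 40 bases in capitals. The F probe covers 136443255 to 136443314 and the R probe 136443235 to 136443294. Both pairs are shown because opposite strands of one interval were alike in signal in the first and far apart in the second.
chr16:89961600-89971725_F: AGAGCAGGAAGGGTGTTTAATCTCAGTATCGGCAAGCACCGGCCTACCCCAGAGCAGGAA
chr16:89961600-89971725_R: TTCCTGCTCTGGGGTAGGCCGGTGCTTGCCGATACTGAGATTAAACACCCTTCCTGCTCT
chr6:136440100-136450050_F: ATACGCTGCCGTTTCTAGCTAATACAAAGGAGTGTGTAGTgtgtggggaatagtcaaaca
chr6:136440100-136450050_R: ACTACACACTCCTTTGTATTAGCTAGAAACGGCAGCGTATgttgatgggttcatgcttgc

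The next set holds bright probes whose letters recur elsewhere. Capitals mark a GT dinucleotide repeat in the first 2 and, in the last 2, a run that a lincRNA probe on chromosome 2 and the probe of Rps15a, a ribosomal protein gene, share as reverse complements.
chr6:92040526-92041319_F: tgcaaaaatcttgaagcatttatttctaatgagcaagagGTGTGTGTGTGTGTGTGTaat
chr5:52461266-52541416_R: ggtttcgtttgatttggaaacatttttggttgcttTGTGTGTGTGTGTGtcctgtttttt
chr2:151992806-152025456_F: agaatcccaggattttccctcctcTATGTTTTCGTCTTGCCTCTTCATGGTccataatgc
Rps15a: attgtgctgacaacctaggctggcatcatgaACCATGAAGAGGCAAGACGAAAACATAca

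The third set holds 4 neighbouring loci of chromosome X, all on the R strand, which were among those with the largest difference between the populations. Capitals mark the longest run each shares with any probe of another of the 4 loci, which for the loci starting at 92139043 and 92151384 is a probe not printed here.
chrX:92119889-92128492_R: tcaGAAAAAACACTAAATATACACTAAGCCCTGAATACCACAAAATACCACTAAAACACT
chrX:92139043-92140820_R: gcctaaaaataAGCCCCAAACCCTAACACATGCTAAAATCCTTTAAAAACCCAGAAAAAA
chrX:92149320-92151107_R: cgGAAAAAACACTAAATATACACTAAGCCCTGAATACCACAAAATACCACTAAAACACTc
chrX:92151384-92157256_R: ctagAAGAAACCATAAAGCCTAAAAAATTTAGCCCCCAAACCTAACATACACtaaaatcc

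The last set holds the probes with the most extreme differences in the comparison of populations in WT cells (chromosomes 17 and 10), in the comparison of genotypes in LT-HSC (chromosome 3) and a probe among the 5 highest between populations in cKO cells, with nearly the same difference in WT (chromosome 9). No base is marked.
chr17:6514179-6517720_R: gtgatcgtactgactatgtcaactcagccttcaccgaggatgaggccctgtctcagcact
chr10:96103732-96103867_F: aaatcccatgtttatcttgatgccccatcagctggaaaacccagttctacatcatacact
chr3:30052149-30052393_R: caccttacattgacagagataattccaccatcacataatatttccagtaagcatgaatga
chr9:89167172-89168980_F: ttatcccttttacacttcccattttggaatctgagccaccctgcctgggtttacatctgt

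Detection was asked first. Of the lincRNA probes, 63.4% were well above background in WT LT-HSC, 66.5% in cKO LT-HSC, 57.2% in WT MPP and 60.4% in cKO MPP. Probes of named genes were detected more often, at 69.7%, 71.8%, 64.5% and 66.6%. The difference was -6.33, -5.30, -7.33 and -6.13 percentage points, so it had the same sign on every array. Named genes with NR_ accessions, which RefSeq gives to non-coding transcripts, were detected less often than the lincRNA probes, at 59.1%, 62.3%, 54.9% and 56.9% of 886 probes. The median signal of the lincRNA probes was 24.2, 26.4, 22.9 and 22.1 against 45.3, 48.3, 39.2 and 39.1 for probes of named genes. The order of the arrays was the same in both classes, with more probes detected in LT-HSC than in MPP of either genotype, and more in cKO than in WT.

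Counted over loci instead of probes, the order of the classes turned. At least 1 probe was well above background for 86.7%, 88.8%, 81.4% and 83.2% of the loci, against 71.8%, 73.6%, 66.2% and 68.0% of the named genes. A locus has more probes than a gene here, and each is a further chance to pass. On all 4 arrays 7938 lincRNA probes (49.0%) passed, and on none 3958 (24.4%), against 58.3% and 21.7% of the probes of named genes. The others divided into 1627 probes on 1 array, 1318 on 2 and 1353 on 3. Those seen on a single array numbered 537 in WT LT-HSC, 644 in cKO LT-HSC, 171 in WT MPP and 275 in cKO MPP, so most were seen in LT-HSC. Probes of named genes seen on a single array numbered 991, 1110, 260 and 351 in the same order, so this was not particular to the loci. By locus, 3451 (74.9%) had at least 1 probe on all 4 arrays, 334 (7.25%) had none on any, and 1166 (25.3%) had every probe on all 4. In 1401 loci (30.4%) one probe was well above background on all 4 arrays and another on none. Probes of one locus thus often disagreed on detection.

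**Figure D1:**
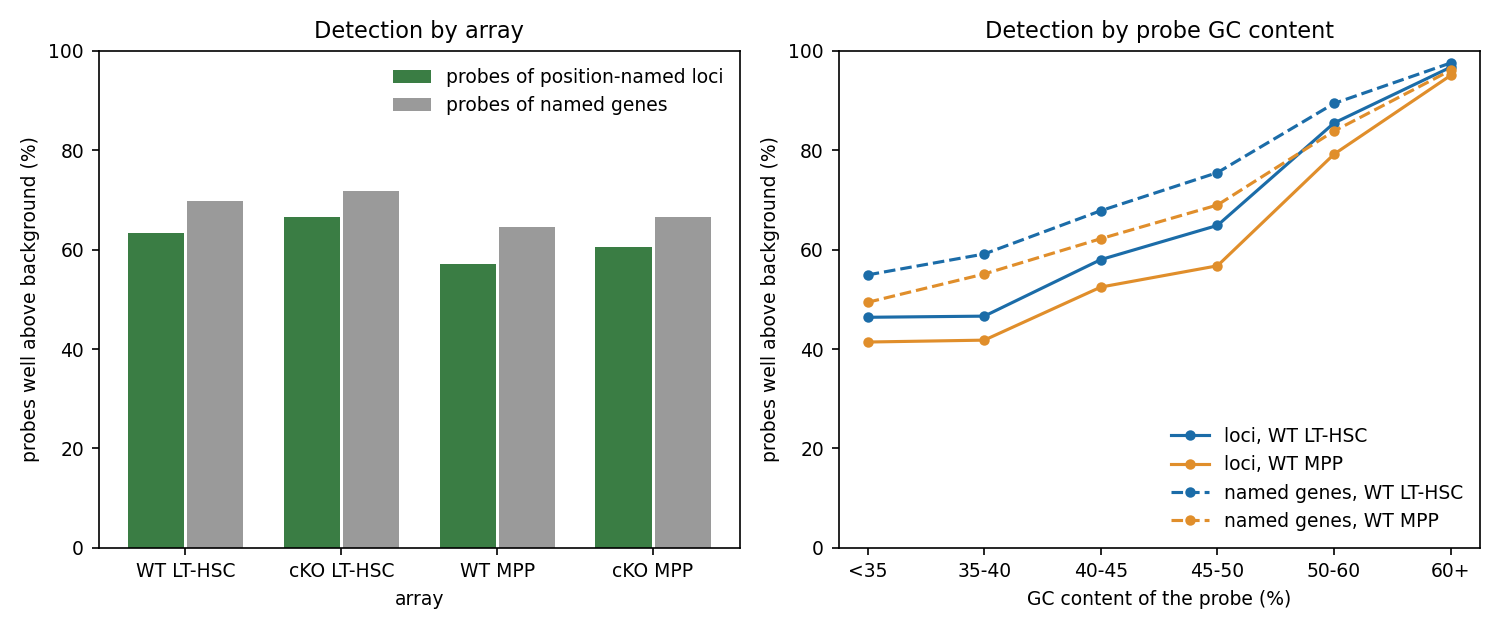
The bars (left) give the percent of probes well above background on each array for lincRNA loci and for named genes, from 0. The lines (right) give the same percent by the GC content of the probe in WT LT-HSC and WT MPP, and the lincRNA probes lie below the named genes in every range shown, from 46.6% against 59.1% at 35 to 40% GC to 96.7% against 97.5% at 60% or more in WT LT-HSC.

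Detection moved with probe composition. The lincRNA probes had a median GC content of 45% against 41.7% for named genes. In WT LT-HSC, 46.4% of lincRNA probes under 35% GC were detected, 58.0% of those from 40 to 45% GC, 85.5% of those from 50 to 60% GC and 96.7% of those of 60% GC or more. Named genes gave 54.9%, 67.8%, 89.4% and 97.5% in the same ranges. At matched GC content the gap between the classes was therefore wide below 50% GC and nearly closed at 60% or more. Position within the locus also went with detection: 56.7% of the 5214 probes within 500 bases of the 3' end were detected in WT LT-HSC against 66.3% of the 2139 probes 500 to 2000 bases away and 68.0% of the 4104 probes more than 10000 bases away.

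Chromosome X stood apart among the loci. In WT LT-HSC the share of lincRNA probes detected ran from 54.8% on X to 69.6% on chromosome 14. On each autosome the share was higher in WT LT-HSC than in WT MPP, but on X it was 54.8% against 58.9%, over 577 probes of 178 loci. The cKO arrays gave 62.6% in LT-HSC and 60.3% in MPP there. Named genes on X did not share this order, with 61.9% in WT LT-HSC and 56.6% in WT MPP over 1491 probes.

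Of the 10 loci with the highest mean signal, the top 2 were the opposite strands of chr17:39960567-39992817, with signals of 145226, 110186, 143748 and 122774 on R and 106472, 59154, 114753 and 94126 on F, the nearest named probe being of BC031453. Further loci of the 10, chr17:39982023-39983277_F and chr17:39979941-39981793_R, lie inside this interval. As background, this stretch of chromosome 17 is where the mouse assembly holds Rn45s, the precursor of the ribosomal RNAs. On its brightest probe, none of the 10 differed 2-fold in any of the 4 comparisons, but other probes of some of them did. Between cKO and WT in LT-HSC, a further probe of chr17:39960567-39992817 gave -1.87 on R, and others gave -1.12 and -1.04 on F. Those of chr17:39982023-39983277_F gave -1.18 and -1.47. The remaining probes of the chromosome 17 loci stayed under 2-fold in that comparison.

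Of the same 10, chr2:151992806-152025456_F read 63128, 76317, 94569 and 95882. It is the probe whose capitals above are the reverse complement of the Rps15a probe, which itself read 7377, 8357, 9581 and 9981. The nearest probe in the genome, 3911 bases away on the R strand, is that of Rps15a-ps7, a pseudogene of Rps15a, so the signals of the locus and of this gene family cannot be told apart by these letters alone. The locus chr19:5795690-5797464_F read 110540, 99575, 51866 and 62648. It is placed on the strand opposite to NEAT2, the array's name for Malat1, a nuclear non-coding RNA of nearly all cells, whose probe 1555 bases away read 6427, 2593, 2290 and 1234. In LT-HSC the locus differed by -0.05 ± 0.20 between cKO and WT and NEAT2 by -1.21, while between WT LT-HSC and WT MPP both were higher in LT-HSC, by 0.83 and 1.22.

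Repeats marked a further group of bright probes. At least 5 units of GT occurred in 28 lincRNA probes, 27 of them detected on every array, with a median signal of 5124, 5509, 4000 and 4097. The 3 brightest had mean signals of 42824 (chr6:92040526-92041319_F), 39974 (chr5:52461266-52541416_R) and 36553 (chrX:120963050-120963598_F). The complementary AC repeat in 22 probes had a median of 308 in WT LT-HSC, so probes of the 2 strands of one repeat differed in signal. Among named genes, 153 probes with the GT repeat had a median of 66237 in WT LT-HSC. Runs of at least 25 bases were shared on the same strand with a lincRNA probe at another place, at times of the same locus, by 381 lincRNA probes, and 39 shared one with the probe of a named gene on the same strand and 79 on the opposite strand. The median signal of those 79 was 733, 1015, 1191 and 1103.

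Opposite strands were then compared where probes of the 2 strands overlap by at least 30 bases of reverse complement, which held for 1630 pairs. Both probes passed on every array in 616, only one of them in 404, and in 142 of those the other passed on none. Neither did in 610. Over the 616 pairs the signals were correlated at r = 0.70, and the median size of the log2 difference between strands was 1.04. For differences between arrays, r was 0.77 for cKO against WT in LT-HSC, 0.62 in MPP, 0.81 for LT-HSC against MPP in WT and 0.74 in cKO. When the F probe differed 2-fold, the R probe differed in the same direction in 117 of 120, 25 of 25, 151 of 157 and 70 of 74 pairs, and by 2-fold in 83, 18, 108 and 42. The pairs share arrays and base composition, so these correlations are descriptions. As background, a transcript of one strand is complementary to only one probe of such a pair. Where both probes were measured, they mostly moved together.

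**Figure D2:**
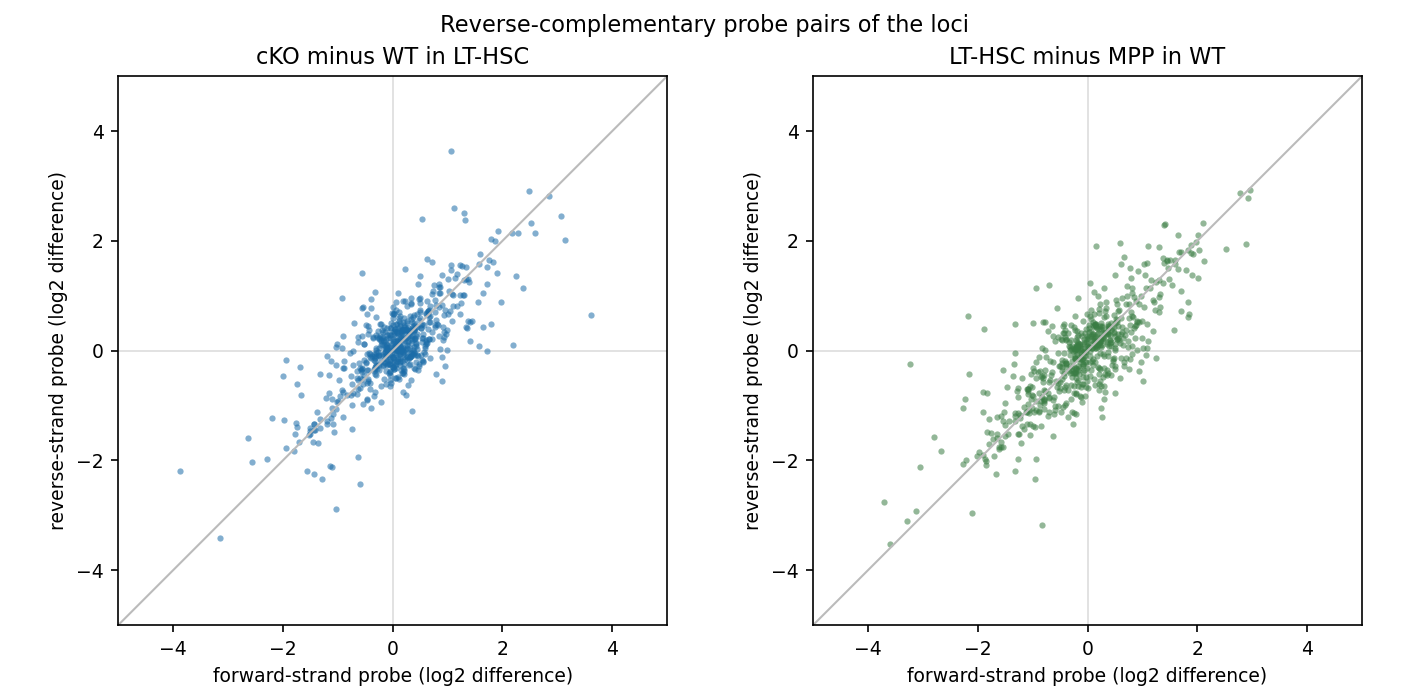
Each point is one of 616 pairs of overlapping probes on opposite strands, with the log2 difference of the forward probe on the x axis and that of the reverse probe on the y axis. The left panel gives cKO minus WT in LT-HSC (r = 0.77), the right panel LT-HSC minus MPP in WT (r = 0.81), and the points run along the diagonal.

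The chromosome 16 pair printed above shows this most fully. Its F probe read 57.8, 242, 584 and 199, and its R probe 51.4, 213, 493 and 175. Both were lowest in WT LT-HSC and highest in WT MPP. The difference between LT-HSC and MPP in WT was -3.60 on F and -3.53 on R, and that between cKO and WT in LT-HSC was 2.17 and 2.15. In MPP the genotypes differed the other way, by -1.52 and -1.46. On chromosome 9, the strands of chr9:121207045-121269020 differed by -3.15 (F) and -3.41 (R) between cKO and WT in LT-HSC on the overlapping probes.

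The opposite case was the chromosome 6 pair. The F probe of chr6:136440100-136450050 read 3109, 3200, 2444 and 2461 and the R probe 10.6, 6.72, 3.24 and 7.34, not well above background on any array. The F strand of chr8:26212577-26218527 read 4983, 5405, 3014 and 3583 against 65.8, 40.7, 3.87 and 4.50 on R. That of chr8:13507348-13543773 read 670, 850, 1197 and 1082 against 3.17, 3.19, 3.93 and 3.33. That of chr18:12755615-12773365 read 2614, 3363, 5454 and 5152 against 26.5, 19.4, 15.8 and 15.2. In chr17:88466300-88495175 it was R that was bright, at 1047, 893, 842 and 694 against 2.78, 10.5, 3.43 and 2.87. In these 5 intervals one strand was bright on every array. The dim strand was nonetheless well above background on all 4 arrays on chromosome 18 and on 2 in chr8:26212577-26218527, and on 0 in the other 3.

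Probes of one locus and strand were next compared with each other. Among neighbouring probes that both passed on every array, r for cKO against WT in LT-HSC was 0.90 in 65 pairs starting under 31 bases apart, 0.68 in 1954 pairs 31 to 100 bases apart, 0.45 in 1006 pairs 100 to 500 bases apart and 0.05 in 269 pairs 500 to 2000 bases apart. It was 0.12 in 133 pairs more than 10000 bases apart. For LT-HSC against MPP in WT the same distances gave 0.94, 0.75, 0.61, 0.30 and 0.29. Likeness was thus greatest within 500 bases, in intervals whose median length is 10676 bases. Neighbouring strands at one spot were more alike than neighbouring probes 500 bases apart on one strand.

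The first comparison set cKO against WT in LT-HSC. Of 3806 loci well above background on both arrays, 310 (8.15%) were at least 2-fold higher in cKO and 236 (6.20%) at least 2-fold lower, with a median difference of 0.12. With quantile normalization it was 252 higher and 282 lower with a median of 0.016, so the balance of directions depends on the scaling. Over all 24111 loci, named genes and unnamed transcripts measured, the shares were 9.22% and 7.66%, and the median was 0.12. Counted either way it was 14.3% of loci and 16.9% of all features. For named genes alone they were 9.78% and 8.36%. The share of loci past 2-fold was below that of named genes in both directions. Counted over probes the classes were nearly alike, with 10.3% of lincRNA probes higher and 8.28% lower. Probes of named genes gave 10.5% and 8.86%. A further 97 loci were at least 2-fold higher and 32 at least 2-fold lower as bounds, with 1 array of the pair not well above background. Bounds were counted for the loci only. Of the 546 loci at 2-fold, 373 had another measured probe, and that probe was 2-fold in the same direction in 209 (56.0%) and 2-fold in the opposite direction in 42.

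The highest difference was that of chr3:30052149-30052393_R, one of the loci near Mecom, a transcription factor gene of stem cell maintenance, 83322 bases from its probe. It read 16.8, 515, 92.4 and 89.8. It was low in WT LT-HSC and high in cKO LT-HSC, with both MPP arrays between them, and the difference was 5.03 ± 0.34. A second probe 133 bases away gave 2.01. The Mecom probe 83322 bases away could not be compared, as a difference needed a probe well above background on both arrays. Whether it changed is not known. Another Mecom probe, starting at position 29876185 and so further off, moved opposite to the locus, from 182 in WT LT-HSC to 26.4 in cKO LT-HSC. Next came chr5:77188626-77219161_F, near Cracd, at 17.7, 461, 13.7 and 20.8 with a difference of 4.80 ± 0.32, which was high on the cKO LT-HSC array alone. Its other probes, 156 and 81 bases away, gave 0.06 and -0.01, so the difference rests on 1 probe. High on the same array alone was chr6:100514596-100520846_R, at 19.97, 271, 27.5 and 19.8 and a difference of 3.86 ± 0.30, where a probe 139 bases away gave 0.83. In chr18:78190463-78235438_R (38.6, 700, 162 and 96.4, difference 4.28) and chr13:90247709-90253992_R (16.7, 193, 125 and 156, difference 3.63) the MPP arrays lay between. Other probes of the former gave 2.43 at 120 bases and -1.34 at 1609 bases. Those of the latter, 1259 and 1319 bases away, were not well above background in LT-HSC. They read 2.83 and 2.57 in WT and 2.79 and 2.58 in cKO LT-HSC, so the difference of 3.63 rests on 1 probe. The largest bound belonged to chr13:28700385-28760363_R, at least 36.8-fold higher in cKO, where its signal was 429 against 10.0, not well above background, in WT. A bound sets the bright array against the lowest signal that counts as well above background on the dim one, or against the dim spot's own signal where that is higher.

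At the low end, chr17:84397891-84412748_F read 221, 17.5, 115 and 119, a difference of -3.56 ± 0.31, and cKO LT-HSC alone was low. chr8:119090566-119097735_F read 2010, 181, 187 and 525, a difference of -3.38 ± 0.21, and here WT LT-HSC alone was high. Its other probes gave -1.94 and -3.04 at 102 and 162 bases but 1.75 and 1.93 at 423 and 1057 bases. So it was for chr4:101010948-101032148_R, at 204, 17.5, 22.3 and 30.1 with a difference of -3.44, while a probe 247 bases away gave -0.33. chr9:121207045-121269020_R, whose overlapping probe on F moved alike, read 671, 58.9, 160 and 73.7, a difference of -3.41 ± 0.22. Probes a little further on did not follow, with -0.29 on R at 81 bases and 0.95 and 0.28 on F at 69 and 129 bases. Among the 3 largest bounds downwards was that of chrX:102232535-102265435_R, which read 263 in WT LT-HSC and was not well above background on the other 3 arrays. It was at least 19.5-fold lower in cKO LT-HSC and at least 12.7-fold lower in WT MPP.

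In MPP the genotypes lay closer together. Of 3521 loci, 57 (1.62%) were at least 2-fold higher in cKO and 73 (2.07%) at least 2-fold lower, against 1.75% and 1.89% of all 22379 features; either way it was 3.69% of loci and 3.64% of all features. The median was 0.04 for the loci and -0.06 for all features. Counted over probes, 2.65% of lincRNA probes were higher and 2.69% lower, above the 1.91% and 2.11% of probes of named genes. A second probe was 2-fold in the same direction for 33 of 81 loci (40.7%).

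The highest locus, chr9:56911160-56911452_F, read 8.6, 94.8, 34.1 and 196, the first not well above background, and differed by 2.55 ± 0.26, with 2.13 on a probe 60 bases away. chr1:175654606-175672031_F read 899, 1803, 73.1 and 326. It was higher in cKO than in WT MPP by 2.18 ± 0.22 and higher in LT-HSC than in MPP by 3.35 in WT and 2.27 in cKO. The gene nearest to it, the interferon-inducible Ifi207, was likewise higher in LT-HSC, by 2.76 and 2.04. At the low end, chr10:66383049-66386347_F read 23.1, 13.7, 313 and 17.2, the second not well above background. It was bright in WT MPP alone, with a difference of -4.15 ± 0.33 between cKO and WT MPP, but a probe 106 bases away read only 10.5 in WT MPP. chrX:148732853-148761972_R, nearest to the non-coding RNA gene Kantr, read 283, 1167, 662 and 147 and so was higher in cKO LT-HSC (2.14) and lower in cKO MPP (-2.15). A probe 63 bases away gave 1.90 and -1.84, and one 346 bases away -0.20 and -0.61.

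Some loci differed alike in both genotype comparisons. Of 3413 loci on all 4 arrays, 15 were 2-fold higher in cKO in both populations and 8 lower in both, while 19 were higher in LT-HSC and lower in MPP and 5 the reverse. The same count was not made over all features, so nothing is read from these numbers. Among those higher in both, chr3:51784862-51793999_F read 21.4, 245, 85.2 and 276, with differences of 3.61 and 1.73. chr6:134838675-134847075_F, in a stretch whose nearest genes are Gpr19 and the cell cycle inhibitor gene Cdkn1b, read 29.8, 93.2, 25.4 and 69.4, with differences of 1.74 and 1.48. Its other probes disagreed. One 60 bases away, well above background on 2 arrays, gave 2.12 and 1.17, and one 117 bases away, on 1 array, 0.34 and 3.02. A probe 990 bases away, well above background on 3 arrays, read 74.1, 24.6, 20.4 and 10.0. It was thus lower in cKO, by -1.49 in LT-HSC. Among those lower in both, chr1:4889810-4890012_R, 2410 bases from a probe of the elongation factor gene Tcea1, read 451, 73.2, 137 and 43.8, with differences of -2.53 and -1.61, and its other 2 probes gave -1.86 and -1.05, and -2.55 and -2.34. By the rule that picked them, the brightest probe of each of these 3 loci had both cKO arrays on one side of the WT array of the same population.

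**Figure D3:**
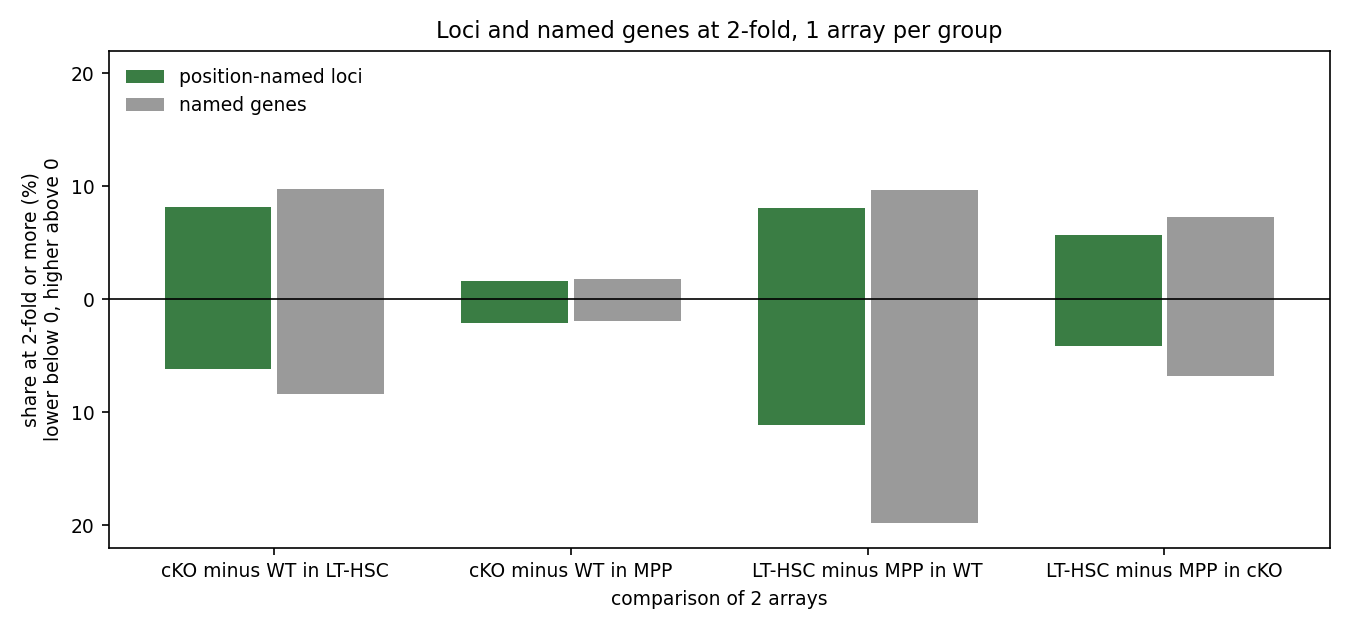
Bars above 0 give the percent of loci and of named genes at least 2-fold higher, and bars below 0 the percent at least 2-fold lower, in each of the 4 comparisons. The loci lie below the named genes most clearly among features lower in LT-HSC than in MPP in WT, at 11.2% against 19.8%.

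The populations differed more. Between LT-HSC and MPP in WT, 285 of 3545 loci (8.04%) were at least 2-fold higher in LT-HSC and 396 (11.2%) at least 2-fold lower, against 9.08% and 18.2% of all 22382 features; either way it was 19.2% and 27.3%. The median was -0.02 for the loci, -0.23 for named genes and -0.20 for all features. The direction of the loci depended on the scaling: with each array set to the 75th percentile of the probes detected on all arrays, the median of the loci was 0.14 and 54.6% of the loci at 2-fold were higher, against 41.9% as reported. Loci lay above named genes by 0.21 in the median in both. In cKO, 209 of 3672 loci (5.69%) were at least 2-fold higher in LT-HSC and 152 (4.14%) lower, against 6.79% and 6.21% of all 23359 features, with medians of 0.03 and -0.08; either way it was 9.83% and 13.0%. A second probe was 2-fold in the same direction for 282 of 445 loci (63.4%) in WT and 121 of 240 (50.4%) in cKO. The gap between the classes varied with level: among loci whose log2 level was 2 or more, 25.6% were 2-fold either way in WT against 28.6% of named genes at that level, and at levels from 0 to 2 it was 20.2% against 33.2%.

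Higher in LT-HSC of both genotypes was chr17:6514179-6517720_R, at 662, 311, 20.1 and 17.8, with differences of 4.78 ± 0.31 in WT and 3.94 ± 0.30 in cKO. Both LT-HSC arrays lay far above both MPP arrays, while a probe 579 bases away gave 0.64 and 1.49. The same order held for chr9:89167172-89168980_F, at 1933, 1936, 131 and 143, whose differences of 3.61 and 3.57 were nearly equal in the 2 genotypes. A probe 109 bases away read 28.3, 17.3, 21.9 and 17.0, with differences of 0.10 and -0.17, so this rests on 1 probe. chr10:96103732-96103867_F read 464, 246, 20.9 and 66.3, with differences of 4.21 ± 0.34 and 1.70. Its nearest gene, Btg1, an antiproliferative gene whose probe is 18449 bases away, was higher in LT-HSC as well, by 3.29 and 2.30.

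The 4 loci of chromosome X printed above were all higher in LT-HSC. chrX:92149320-92151107_R read 1097, 519, 57.3 and 44.1, and chrX:92151384-92157256_R read 1181, 517, 62.0 and 27.5. chrX:92119889-92128492_R read 776, 372, 51.1 and 31.4, and chrX:92139043-92140820_R read 461, 909, 94.2 and 71.0. Between cKO and WT LT-HSC the probes went both ways, and this followed the probe more than the locus. The printed probes of the loci starting at 92119889 and 92149320 share a run of 57 of their 60 bases, and both were lower in cKO. The probe printed for 92139043 shares 49 bases with a further probe of 92149320, which read 300, 623, 67.2 and 50.2, and both were higher in cKO LT-HSC. The probe printed for 92151384 shares 48 bases with a further probe of 92139043, which read 977, 491, 67.7 and 33.0, and both were lower. Probes that share a run may read the same transcripts, so these loci are not independent.

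Lower in LT-HSC, chr13:28975118-28977236_R read 43.6, 107, 443 and 491, with differences of -3.61 ± 0.22 in WT and -2.39 in cKO. chr8:85609155-85615170_F read 21.1, 67.6, 212 and 179, a difference of -3.59 in WT, and Rnf150, a ring finger gene 2662 bases away, was lower there too, at -1.49. chr7:28778209-28800409_F (15.6, 119, 181 and 163, difference -3.80) and chr3:21964899-21974524_R (23.6, 101, 234 and 234, difference -3.57) were lowest in WT LT-HSC, and the latter was lower in LT-HSC in cKO too, by -1.41. Other probes of the latter 105 and 165 bases away gave -2.61 and -2.98 in WT, and one of the chromosome 8 locus 119 bases away gave -2.20. In cKO, 3 of the 5 lowest loci lie at chr2:132079092-132087069, next to Pcna, the clamp of DNA replication. The R probe read 86.2, 37.2, 341 and 311, and differed by -2.25 in WT and -3.26 in cKO. Pcna itself differed by -1.08 and -0.49. Another probe of one of these 3 loci, chr2:132079092-132086642_F, gave only -0.51 and -0.25 at 146 bases.

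**Figure D4:**
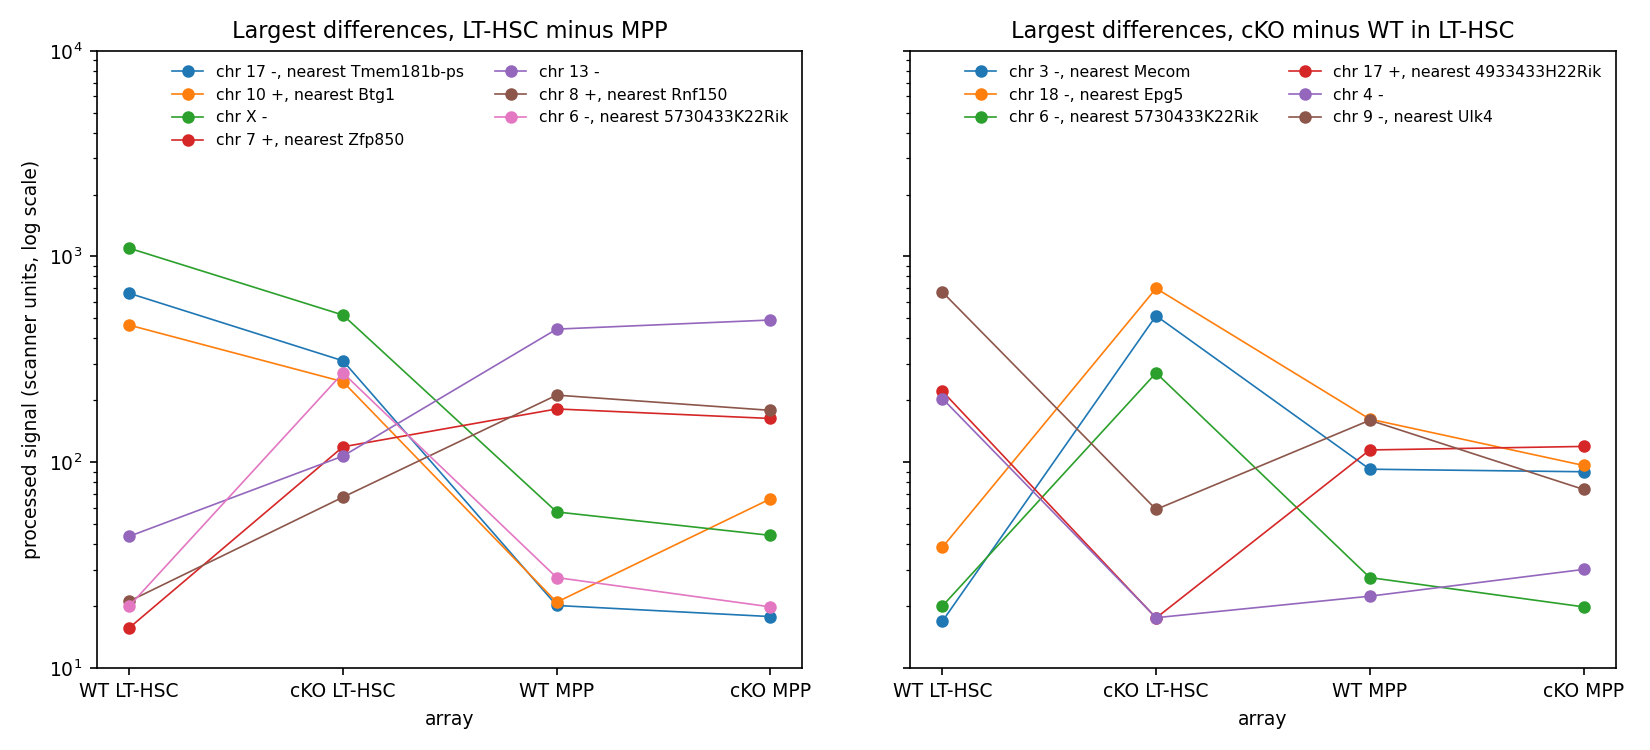
Processed signals (log axis) of 13 loci on the 4 arrays, with the points of one locus joined by a line. The left panel shows loci that differed between LT-HSC and MPP, and the right panel loci that differed between cKO and WT; 1 point is 1 array, so no error bar is drawn.

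Across both genotypes, 68 of the 3413 loci on all 4 arrays were 2-fold higher in LT-HSC and 58 were 2-fold lower, while 14 were higher in WT and lower in cKO and 17 the reverse. These numbers too have no count over all features beside them. Both population comparisons use different arrays, but each shares an array with each genotype comparison. A limma fit with genotype and population as additive terms, which leaves 1 residual degree of freedom and counts any difference in response as error, tested 10606 lincRNA probes among 38615. With so little room the fit can hardly reach an adjusted threshold, so an empty result says nothing about whether loci differ. No probe passed a Benjamini-Hochberg adjusted p of 0.05 (0.0% of all probes) for either term. The lowest adjusted p of a lincRNA probe was 0.984 for genotype and 0.0960 for population. At an unadjusted p under 0.05 there were 560 lincRNA probes for genotype, 341 higher and 219 lower in cKO, and 1253 for population, 581 higher and 672 lower in LT-HSC. That is 5.28% of the lincRNA probes against 3.94% of all probes for genotype, and 11.8% against 14.4% for population. On simulated arrays, 6.26% to 6.62% of probes given no genotype difference passed the same unadjusted threshold. Both genotype shares lie below that rate, so nothing is read from the genotype counts.

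Genes beside the loci were examined next, since many such transcripts start near a coding gene. For loci whose probe lies within 1000 bases of that of a named gene, 523 in all, r between the 2 differences was 0.30 for cKO against WT in LT-HSC, 0.28 in MPP, 0.54 for LT-HSC against MPP in WT and 0.44 in cKO. Of such loci at 2-fold, the neighbour was 2-fold in the same direction for 22 of 59 (37.3%), 2 of 11 (18.2%), 36 of 74 (48.6%) and 21 of 47 (44.7%). Of all the neighbours measured at this distance, 23.3%, 3.06%, 26.5% and 15.4% were 2-fold. Some neighbour probes lie at the same place as the probe of the locus, at a distance of 0 for chr13:28975118-28977236_R and chr3:21964899-21974885_F. From 1000 to 5000 bases r was 0.09, 0.07, 0.18 and 0.14, and from 20000 to 100000 bases 0.01, 0.08, 0.07 and 0.07. The likeness did not reach beyond the nearest bases, as with probes of one locus.

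Near regulators of blood formation, 34 loci had one of 14 such genes as nearest neighbour within 100 kb, and 25 of them were well above background on all 4 arrays. In LT-HSC 3 of 30 were 2-fold higher in cKO and 2 lower (median 0.27), in MPP 0 of 26 and 1 (median 0.07). Between LT-HSC and MPP 3 of 27 were higher and 7 lower in WT (median -0.32), and 2 of 26 either way in cKO (median 0.17). Over all features the shares higher and lower were 9.22% and 7.66%, 1.75% and 1.89%, 9.08% and 18.2%, and 6.79% and 6.21%, so these counts lie near the background. Of the loci near Mecom, chr3:30099759-30133959_F read 71.4, 319, 250 and 267 and chr3:30064327-30064680_R read 34.8, 138, 130 and 132, so both were lowest in WT LT-HSC, with differences of 2.26 and 2.09 between cKO and WT. Other probes of the former gave 2.41 at 60 bases and 0.67 at 198 bases, and one of the latter 0.85 at 89 bases. Another, chr3:30100736-30101280_R, read 187, 110, 58.7 and 85.6 and was highest there. Near Myc, a growth regulator, chr15:61870759-61938796_F read 320, 45.4, 69.9 and 38.3, bright in WT LT-HSC alone and lower in cKO by -2.72, with -2.49 on a probe 121 bases away. Near Ikzf2, a zinc finger gene of lymphoid cells, chr1:69531191-69570566_R read 31.1, 32.5, 96.9 and 102 and was lower in LT-HSC of both genotypes, by -1.90 and -1.84. Another locus near Ikzf2, chr1:69555180-69555559_R, went the other way in WT, at 105, 34.5, 31.8 and 55.5 with a difference of 1.46. Near Hoxb5, a homeobox gene of long-term stem cells, chr11:96173788-96174352_F read 318, 417, 134 and 131 and was higher in LT-HSC, by 0.98 and 1.48, but its other 2 probes gave -0.08 and 0.28, and -0.21 and 0.11.

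Of a list of 48 non-coding RNA genes with names, 34 had a probe. In LT-HSC 3 of 28 were 2-fold higher in cKO and 2 lower, and in MPP 0 of 28 either way. Between LT-HSC and MPP 4 of 29 were higher and 6 lower in WT, and 2 of 28 higher and 3 lower in cKO. These counts too are small beside shares of 9.22% and 7.66%, 1.75% and 1.89%, 9.08% and 18.2%, and 6.79% and 6.21% over all features, and nothing is read from them. Malat1 read 2822, 1230, 876 and 496 and Neat1, which builds the paraspeckles of the nucleus, 1164, 1004, 347 and 351, both brighter in LT-HSC. Meg3, the imprinted RNA of the Dlk1 locus, read 94.6, 26.0, 28.0 and 17.0. Ftx, which acts on Xist, was lower in WT LT-HSC than in WT MPP by -2.11 and higher in cKO than in WT LT-HSC by 1.98. Kcnq1ot1 did the same on one probe, by -2.38 and 1.65. The array's second gene name for it, KCNQ1ot1, has a probe elsewhere that read 2443, 1914, 1938 and 1852, with no such difference.

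Loci lying side by side moved together in places. Chained over gaps of at most 20 kb, the loci formed 1803 stretches, and at least 3 loci of a stretch were 2-fold the same way in 19 stretches for cKO against WT in LT-HSC, 0 in MPP, 21 for LT-HSC against MPP in WT and 12 in cKO. Beside Btg1, 4 of 5 loci were higher in LT-HSC in WT and 5 of 5 in cKO. Around NEAT1 and NEAT2, 5 of 7 were higher in LT-HSC in WT. Beside Pcna, 3 of 3 were lower in cKO than in WT LT-HSC and lower in LT-HSC than in MPP of both genotypes. These 3 overlap, and another probe of chr2:132079092-132086642_F, 146 bases away, stayed under 2-fold in these comparisons, at -0.03, -0.51 and -0.25. On chromosome 4 between 11893711 and 11936190, 3 of 3 were higher in cKO LT-HSC, by 1.72 to 2.26, and lower in WT LT-HSC than in WT MPP, by -2.76 to -2.23. On chromosome 16 between 43623175 and 43642715, near Tigit, an inhibitory receptor gene of T and NK cells, 4 of 4 were higher in LT-HSC in WT, by at least 1.29. The summed signal of 9 T and NK cell markers was 8273 in WT LT-HSC and 1341 in WT MPP, and its part in that stretch was not tested. Loci of one stretch often overlap on opposite strands, so they are not separate counts of a condition. Stretches of named genes are not set beside these counts.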

How the data were processed

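RNA of 4 groups, 1 array each, was hybridised in 1 colour (Cy3) to an Agilent array of design 028005. The deposited scanner files hold processed intensity, mean and background intensity and flags (score columns); per the file headers they come from Feature Extraction 10.7.3.1, and the submitters' processing notes give 9.5.3. The authors' series table holds a linear ratio per probe and served as an alternative. Coordinates are those of mm9 in the files, and no genome of that build was used here.

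For this work, spots with outlier marks (137 to 151 an array) were dropped, signals were set to each array's 75th percentile over non-control spots and log2 taken. Loci took their brightest probe. Fold bounds used the lowest signal well above background, 12.5 to 15.4 by array. The threshold was 2-fold. limma 3.58.1 (R 4.3.3) gave the additive fit, and Python 3.11.15 with pandas 2.3.3 the rest. The steps were checked on simulated data, where the fit recovered 0% of planted genotype differences of log2 1 to 4 after adjustment. Gene symbols were updated through RefSeq GRCm38.p6: 26863 probes by accession, 3752 by symbol, 623 by older symbol, with 5543 kept as in the file.

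Named loci were the 10 brightest, the 5 highest and 5 lowest and the 3 largest bounds each way in each comparison, up to 5 shared 2-fold loci each way, the 10 of widest range near regulators, and the 5 overlapping strand pairs with the largest difference; others named (the pairs that moved together, repeats, stretches) were chosen after their values were seen. Members and lists were chosen with earlier results of these data known. Alternatives were other scalings, normexp, filters on dim probes, the fold threshold and the choice of probe.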

Additional observations from a re-analysis of the deposited data

Results flagged for a closer look

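In 5 of the loci named in the text a difference had opposite signs in the groups compared, by at least 2-fold each way (the counts over all loci are given with the comparisons); whether the differences differ was not tested, as each group had 1 array. LT-HSC minus MPP was -2.34 in WT and 2.66 in cKO for chr18:78190463-78235438_R, and -2.72 and 2.32 for chr3:30052149-30052393_R, the locus near Mecom. It was 2.10 and -1.29 for chr18:84759512-84760012_F, where a probe 97 bases away gave only 0.57 and -0.25. For chr8:119090566-119097735_F, cKO minus WT was -3.38 in LT-HSC and 1.52 in MPP, and LT-HSC minus MPP was 3.16 in WT and -1.73 in cKO. For chrX:148732853-148761972_R, near Kantr, cKO minus WT was 2.14 in LT-HSC and -2.15 in MPP, and LT-HSC minus MPP was -1.49 in WT and 2.80 in cKO. The chromosome 16 probe pair, chosen after its values were seen, also had opposite signs. Its cKO minus WT was 2.17 (F) and 2.15 (R) in LT-HSC and -1.52 and -1.46 in MPP.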

How the results depend on the processing

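Each result rests on single arrays, signals near 12.5 to 15.4 are at the limit of detection, and dim probes carry the widest error. Counted per locus and per gene, the detection gap turned to 15.0, 15.1, 15.2 and 15.2 points in favour of the loci, more probes a locus giving more chances. With normexp the counts of loci higher and lower were 109 and 126 (cKO against WT, LT-HSC), 13 and 6 (MPP), 187 and 125 (LT-HSC against MPP, WT) and 107 and 38 (cKO). With no filter on dim probes they were 518 higher in the first, 196 and 247 in the second, 617 lower in the third, and 389 and 267 in the fourth. At 1.5-fold they were 664 and 442, 289 and 221, 595 and 782, and 507 and 444. With 1 locus per stretch within 20 kb, an alternative chosen after seeing the data, they were 91 and 59, 17 and 20, 93 and 180, and 69 and 48. Without the filter more loci were counted, and with 1 locus per stretch fewer were. At 1.5-fold the loci were the same and only the threshold was lower. How much of each change this accounts for was not tested, nor was the cause with normexp.

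Medians turned sign in MPP between genotypes with the mean of a locus's probes (-0.0052), and between populations in WT with the 75th percentile of detected probes (0.14), quantile normalization (0.081) and normexp (0.043). The share of 2-fold loci that were higher went from 43.8% to 56.2% (percentile of detected probes) and 68.4% (normexp) in MPP, from 41.9% to 54.6%, 53.1% (quantile) and 59.9% in WT, from 57.9% to 68.7% and 73.8% in cKO, and in LT-HSC between genotypes from 56.8% to 47.2% (quantile) and 46.4% (normexp). Loci stayed above named genes in the median under all 4 scalings tried. The fit on probes detected on all 4 arrays called 1 lincRNA probe for population (adjusted p 0.0440, of 86 of all 30971); with 1 residual degree of freedom a count of 0 says nothing about stability. Of 40 named differences 0 turned sign, and 36 stayed 2-fold with normexp and 36 with the mean of probes. These 40 were picked for their size and keep the same spots, so they could hardly turn sign, and no stability is read from this. Their median ratio to the reported difference was 0.56 with normexp and 0.72 with the mean of probes. No paired analysis was possible because each group had 1 array, nor could a replicate be left out. Membership by names starting with lincRNA was not run, since 0 member names start so.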
